A study of Canis lupus familiaris with 12 samples.

Results

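WT MDCKII cells, an epithelial line from dog kidney, were profiled by RNASeq in 3 libraries, and the level of every listed gene in those libraries is described here. The 3 libraries were taken as the members because their labels give the WT genotype, out of 12 libraries of 4 genotypes in the series. No gene was targeted in these cells, the labels state that they received no treatment, and no library of another genotype enters any value. The cells were grown in multiwell plates and were trypsinized and pelleted before the RNA was taken. The labels number the libraries from 1 to 3, and neither they nor the methods say whether the numbers mark separate cultures, so the spread between them may be technical.

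MDCK cells form a polarized monolayer with an apical and a basolateral surface separated by tight junctions, and they are widely used to study epithelial transport. Along the kidney tubule each segment uses its own set of apical channels and transporters, while the basolateral sodium pump drives transport in all of them. The proximal tubule takes up glucose, phosphate, and filtered protein, the thick ascending limb and the distal convoluted tubule reabsorb salt, and the collecting duct adjusts water, sodium, potassium, and acid through principal and intercalated cells.

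Levels are given in CPM, the reads of a gene per 1000000 reads after the authors' scaling, for 13672 listed genes. Errors are the SD over the 3 libraries (n = 3) throughout, and 3 values in a row are those of replicates 1, 2, and 3. CPM were not divided by transcript length, and no transcript lengths of the authors' annotation were used here, so the order of genes by CPM is an order of reads and not of transcript numbers. A single read stands for 0.0589, 0.0552, and 0.0478 CPM in replicates 1, 2, and 3, and dividing every value by this step gave whole reads, with totals of 16837532, 18029587, and 20987950. The CV is the SD divided by the mean, and counting error computed from the mean reads of each gene has a median of 30.2% below 1 CPM.

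The cells had a broad transcriptome with a small set of very abundant mRNAs. Of the 13672 listed genes, 12028 (88.0%) were above 1 CPM in every WT library, 9179 were above 10 CPM, 2116 were above 100 CPM, 71 were above 1000 CPM, and 3 were above 10000 CPM. The median mean level was 27.3 CPM, with quartiles of 5.56 and 69.6 CPM. The 10 genes with the most reads held 9.31% ± 0.606 of the reads of a library, and the 100 genes with the most reads held 22.3% ± 0.608. It took 898, 904, and 873 genes to reach 50% of the reads, and 5603, 5571, and 5586 genes to reach 90%. Another 1055 listed genes were at or below 1 CPM in all 3 WT libraries, since the authors' filter on low values covered all 12 libraries. That filter kept genes above 1 CPM in at least 3 samples, so the 1 CPM limit also shaped which genes are listed. Counts of listed genes above 1 CPM leave out unlisted members, and a high share is no result about a list.

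A gene was said to vary when it met both a test and a fold limit. Its recovered reads departed from the scaled library sizes behind the CPM (chi-square test over the 3 libraries, adjusted p below 0.05). Its highest library was also at least 1.5-fold above its lowest. Of 13672 genes, 349 (2.55%) met this rule, 71 of them with a mean of at least 10 CPM. The test compares these libraries with each other and not conditions. Leaving out replicate 1 left 83 genes, and leaving out replicate 3 left 171.

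The most abundant mRNAs came from the mitochondrial genome, from secreted protein genes, and from genes for translation and the cytoskeleton. COX1, the mitochondrial gene for subunit I of cytochrome oxidase, was at 21537, 20731, and 24035 CPM, or 2.17%, 2.08%, and 2.396% of the reads. SPP1, which encodes the secreted phosphoprotein osteopontin, was the nuclear gene with the most reads, at 14559, 11536, and 14837 CPM. Its replicate 2 value was the lowest and lay apart from the other two, but SPP1 did not meet the rule for varying genes. CLU, which encodes the secreted chaperone clusterin, was at 6940.0, 6510.4, and 6597 CPM, and STC1, which encodes the glycoprotein hormone stanniocalcin, was at 4022, 3825, and 3664 CPM. These 3 secreted products were thus measured with CVs of 13.4%, 3.399%, and 4.67%, and SPP1 had the widest spread among them.

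**Figure D1:**
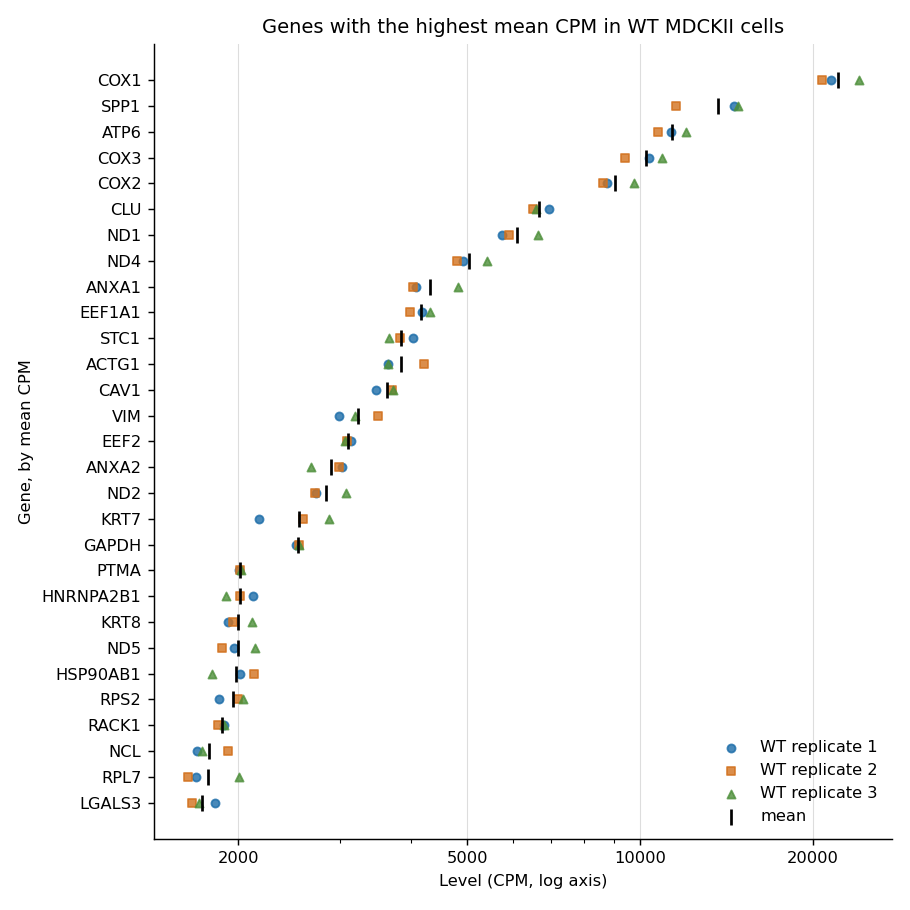
Levels of 29 of the 30 genes with the highest mean CPM in WT MDCKII cells, in CPM on a log axis, with a point for each library and a bar for the mean. COX1 leads at 22101 CPM, SPP1 follows at 13644 CPM, and LGALS3 closes the list at 1731 CPM, with the 3 points of most genes close together.

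Genes of the translation machinery and of the cytoskeleton filled much of the remaining list. EEF1A1, an elongation factor, was at 4153 ± 172 CPM, and EEF2, another, at 3099.7 ± 42.5 CPM. ACTG1, which encodes cytoplasmic gamma-actin, was at 3642, 4207, and 3650.1 CPM, and the intermediate filament gene VIM was at 2991, 3499, and 3190.2 CPM. Replicate 2 was the highest library for both. ANXA1 and ANXA2, which encode calcium-dependent membrane-binding annexins, were at 4308 ± 444 CPM and 2900.3 ± 195 CPM, and CAV1, which encodes the coat protein of caveolae, was at 3624 ± 136 CPM. LGALS3, which encodes the secreted lectin galectin-3, was at 1731 ± 81.96 CPM. The list also held the chaperone HSP90AB1 (1982 ± 168 CPM), the chromatin-associated protein gene PTMA (2015 ± 7.34 CPM), the RNA-binding protein genes HNRNPA2B1 (2012 ± 107 CPM) and NCL (1779.5 ± 119 CPM), and the ribosome-bound scaffold gene RACK1 (1875 ± 25.8 CPM). Actins, elongation factors, ribosomal proteins, and HSP90 genes have near-identical copies, and reads that such copies share could be split or dropped in counting, so the levels of these genes are uncertain by an amount not measured here.

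All 13 protein-coding genes of the mitochondrial genome were listed, and together they held 7.15%, 6.88%, and 7.79% of the reads of replicates 1, 2, and 3 (7.27% ± 0.468). Replicate 3 was the highest and replicate 2 the lowest. The genes for the cytochrome oxidase subunits and for ATP6, a subunit of ATP synthase, were read most, with ATP6 at 11367 ± 632 CPM, COX3 at 10237 ± 765 CPM, and COX2 at 9047 ± 618 CPM. Genes for complex I subunits ranged from ND1 at 6104 ± 471 CPM to ND6, the gene on the opposite strand, at 189 ± 22.1 CPM. ATP8 (749.9 ± 82.6 CPM) overlaps ATP6 and ND4L (258 ± 35.00 CPM) overlaps ND4, so the counts of these pairs are uncertain, as is that of ND6 because the strand setting of the counting is not given in the sources used here. Between them lay ND4 (5045 ± 318 CPM), ND2 (2846 ± 207 CPM), ND5 (1994 ± 136 CPM), CYTB, the cytochrome b gene (1430.2 ± 92.4 CPM), and ND3 (1160.5 ± 105 CPM). Of the 13 genes, 0 varied, as did 0 of the 75 genes with a mean of at least 1000 CPM, against 2.55% of all genes. That share depends on level, with 225 of 2967 genes varying from 1 to 10 CPM and 5 of 2178 from 100 to 1000 CPM. A count of 0 among abundant genes therefore does not show steadier expression. ATP6 (chi-square test, adjusted p = 8.7e-295, fold 1.12) and ND4L (adjusted p = 1.2e-35, fold 1.30) met the test and missed only the fold limit.

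Families found by symbol showed how the other reads were distributed. The 75 listed cytosolic ribosomal protein genes held 5.24% ± 0.217 of the reads, and 69 of them were above 100 CPM in every library, with RPS2 (1962 ± 101 CPM) and RPL7 (1773 ± 199.6 CPM) leading. Keratin genes held 0.816% ± 0.0370 from 15 listed genes, annexin genes 0.830% ± 0.0224 from 10, and collagen genes 0.299% ± 0.00687 from 20. The 215 listed solute carrier genes held 1.24% ± 0.00935, while 4 aquaporin genes held 0.00149% ± 8.75e-05. The 2063 genes with a LOC name, which carry no assigned symbol, held 2.697% ± 0.0206 and had a median level of 1.57 CPM. These families were defined after the levels had been seen.

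**Figure D2:**
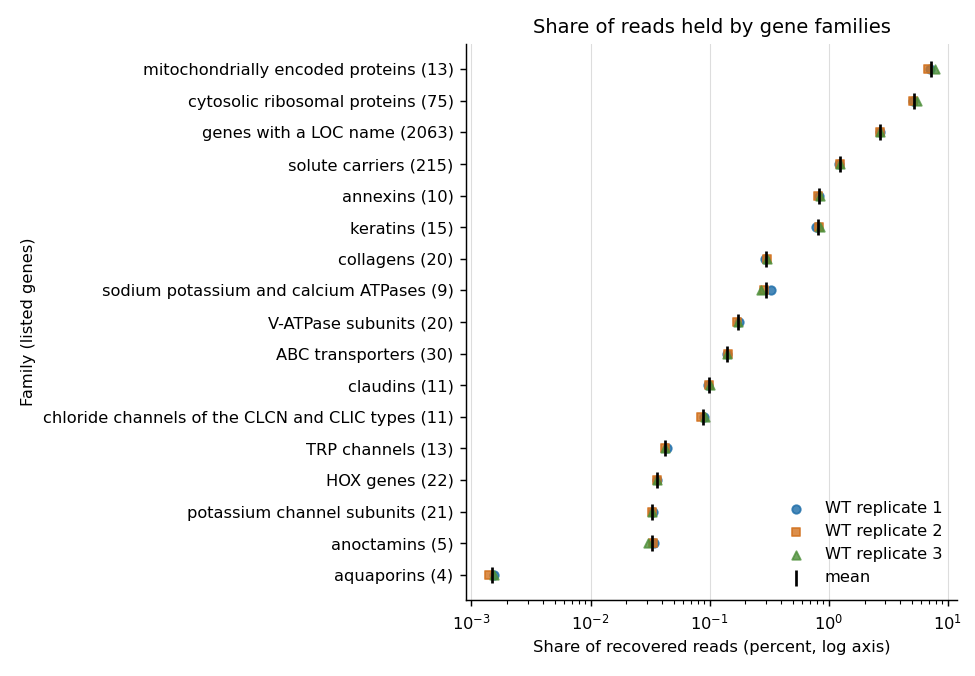
Share of the recovered reads held by gene families of WT MDCKII cells, in percent on a log axis, with a point for each library, a bar for the mean, and the number of listed genes in brackets. Mitochondrially encoded genes lead at 7.27% and aquaporin genes are last at 0.00149%, and the points of the 3 libraries nearly coincide for most families.

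Most of the defining genes of an epithelium were expressed in every library, and the mesenchymal filament gene VIM was also abundant. Of 27 markers of epithelial identity, 26 were listed and 25 were above 1 CPM in every library, against 88.0% of all genes, with a median mean level of 121 CPM against 27.3 CPM over all genes. CDH1, which encodes the adherens junction protein E-cadherin, was at 1142, 1132, and 1005 CPM. EPCAM, an epithelial adhesion molecule gene, was at 588, 612, and 555 CPM. The keratin genes of simple epithelia were all above 1000 CPM in every library, with KRT7 at 2169.9, 2594, and 2876 CPM, KRT8 at 1996 ± 101 CPM, KRT19 at 1657 ± 70.8 CPM, and KRT18 at 1632 ± 84.8 CPM. KRT7 was lowest in replicate 1 and highest in replicate 3, and its CV of 13.96% was above those of KRT8 (5.07%), KRT19 (4.27%), and KRT18 (5.19%).

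Regulators and surface proteins of epithelia were present over a wide range of levels. Among the transcription factors, ELF3 was at 263 ± 9.899 CPM, EHF at 104 ± 14.8 CPM, GRHL2 at 46.6 ± 4.74 CPM, GRHL1 at 26.5 ± 2.87 CPM, OVOL2 at 14.3 ± 0.248 CPM, and OVOL1 at 5.92 ± 0.586 CPM. The epithelial splicing factor genes ESRP1 and ESRP2 were at 95.3 ± 9.12 CPM and 56.9 ± 1.85 CPM. SPINT2 and SPINT1, which encode protease inhibitors of the cell surface, were at 663 ± 27.2 CPM and 138 ± 2.94 CPM, and their target proteases ST14 (matriptase) and PRSS8 (prostasin) were at 59.9 ± 5.01 CPM and 38.8 ± 2.04 CPM. The apical sorting protein genes MAL and MAL2 were at 329.7 ± 19.7 CPM and 260.2 ± 11.2 CPM, MUC1, an apical mucin gene, was at 257 ± 29.2 CPM, and RAB25, a recycling GTPase gene, was at 82.2 ± 1.66 CPM. CRB3, which encodes an apical polarity protein, was at 24.3 ± 1.78 CPM, and the claudin gene CLDN7 was at 259 ± 4.39 CPM. CD24 was not listed, and CDH16, which encodes the kidney-specific cadherin, had the fewest reads of the listed members, at 1.94, 0.828, and 1.58 CPM, from 33, 15, and 33 reads.

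Genes of the apical surface were listed in part. Of 10 genes for the brush border and apical membrane, 6 were listed. Of these, 4 were above 1 CPM in every library, against 88.0% of all genes. EZR, which encodes the actin linker ezrin, was at 1079 ± 34.6 CPM, and its scaffold partner gene SLC9A3R1 (NHERF1) was at 170.1 ± 6.16 CPM. GPRC5A, an orphan receptor gene, was at 213 ± 8.004 CPM. ALPL, an alkaline phosphatase gene, was at 1.92 ± 0.280 CPM, and PDZK1 and MYO1A, both products of brush borders, were at 0.275 ± 0.120 CPM and 0.841 ± 0.223 CPM. VIL1, CDHR2, CDHR5, and ESPN, which build or link microvilli, were not listed.

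Markers of other cell types were examined in the same way. Of 16 mesenchymal and fibroblast genes, 7 were listed and 6 were above 1 CPM in every library, against 88.0% of all genes. The summed level of the listed ones was 3471 to 3974 CPM. VIM alone held most of that sum, and FN1, which encodes fibronectin, was at 439.6 ± 26.3 CPM. The fibroblast genes COL1A1, COL1A2, COL3A1, DCN, LUM, PDGFRB, and TWIST1 were not listed, nor were CDH2 and ZEB2. SNAI1 was at 12.9 ± 1.999 CPM, SNAI2 at 5.04 ± 0.577 CPM, ZEB1 at 1.56 ± 0.247 CPM, PDGFRA at 4.05 ± 1.39 CPM, and ACTA2, the smooth muscle actin gene, at 0.343 ± 0.207 CPM. The endothelial list had 2 of 6 genes listed, KDR at 1.36 ± 0.354 CPM and VWF at 0.337 ± 0.0550 CPM, with a summed level of 1.47 to 2.04 CPM, and PECAM1, CDH5, TEK, and EMCN were not listed. Of 5 immune genes, PTPRC, CD3E, and CSF1R were not listed, CD14 was at 8.24 ± 0.919 CPM, and CD74, which encodes the invariant chain of MHC class II, was at 986, 857, and 906 CPM. The summed level of the immune list was 865 to 995 CPM, nearly all of it from CD74. In bulk RNA, fewer cells of a type and less RNA per cell cannot be told apart, and the part of other cells in these levels was not tested.

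Transcription factors known from several parts of the kidney were listed. Of 26 genes on this list, 18 were listed, and all 18 were above 1 CPM in every library, against 88.0% of all genes, a share that would give most of any 18 listed genes. PAX8 and PAX2, which act in nephron and collecting system development, were at 92.2, 87.5, and 84.3 CPM and 33.4, 26.9, and 30.5 CPM. OSR1, a gene of early kidney precursors, was at 167, 162, and 173 CPM, with a CV of 3.303%. By CPM, 91.6% of the listed genes were below OSR1. SALL1, another developmental regulator, was at 29.5 ± 2.68 CPM, LHX1 at 7.27 ± 0.397 CPM, and POU3F3, a gene of the distal nephron, at 7.85 ± 0.859 CPM. WT1, EYA1, SIX2, EMX1, and EMX2 were not listed.

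Factors tied to separate segments were listed together, and bulk RNA does not show whether the same cells held them. HNF4A and HNF4G, of which HNF4A is the main regulator of proximal tubule genes, were at 17.5, 13.03, and 13.4 CPM and 3.85 ± 0.398 CPM. GATA3, a collecting duct and distal factor, was at 17.2, 17.3, and 16.6 CPM, and TFCP2L1, a collecting duct factor, was at 7.69 ± 1.01 CPM. TFAP2A and TFAP2B, genes of the AP-2 family with TFAP2B known from the distal nephron, were at 7.99 ± 0.673 CPM and 3.51 ± 0.316 CPM. ESRRG was not listed. The HOX genes of the list were HOXA9 at 104 ± 1.803 CPM, HOXD8 at 41.95 ± 0.989 CPM, HOXB7 at 18.5 ± 0.389 CPM, and HOXA10 at 7.45 ± 0.146 CPM, and HOXD10 was not listed. In all, 22 HOX genes were listed, and each was above 1 CPM in every library, against 88.0% of all genes. Their median CV was 7.78%, against 7.16% for all listed genes. These are not like for like, since the CV depends on level and the median level of the HOX genes was 9.46 CPM, against 27.3 CPM.

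No tubule segment was represented by its full set of markers, and the genes that were listed came from several segments at once. Of 23 proximal tubule genes, 10 were listed and 7 were above 1 CPM in every library, against 88.0% of all genes. The listed ones had a median mean level of 4.96 CPM, against 27.3 CPM over all genes. HAVCR1, which encodes the injury marker KIM-1, was at 474, 543, and 535 CPM and held the most reads of them. GGT1, a brush border enzyme gene, was at 48.97, 36.1, and 41.2 CPM, and CUBN, which encodes the protein uptake receptor cubilin, was at 21.2, 19.7, and 17.3 CPM, while LRP2, its partner megalin, was not listed. The enzyme genes FBP1 and MIOX were at 5.61 ± 0.331 CPM and 4.32 ± 0.468 CPM, and the amino acid transporter gene SLC7A7 was at 1.37 ± 0.254 CPM. PCK1, PDZK1, and DPP4 were at 0.380 ± 0.199 CPM, 0.275 ± 0.120 CPM, and 0.237 ± 0.225 CPM, each from a few reads a library. The genes for glucose, phosphate, organic anion, and bicarbonate uptake of this segment (SLC5A1, SLC5A2, SLC34A1, SLC22A6, SLC22A8, and SLC4A4) were not listed, nor were SLC3A1, SLC7A9, GATM, AQP1, and ANPEP.

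Of 11 thick ascending limb genes, 2 were listed, and both were above 1 CPM in every library, against 88.0% of all genes. CLDN16, which encodes a claudin of the magnesium pathway, was at 43.1, 34.4, and 36.5 CPM. EGF, which encodes epidermal growth factor, was at 39.01, 25.8, and 31.97 CPM, highest in replicate 1 and lowest in replicate 2, and varied between the libraries by 1.51-fold. SLC12A1 and UMOD, which encode the apical salt cotransporter NKCC2 and uromodulin, were not listed, nor were CLDN10, CLDN19, KCNJ1, CASR, and BSND.

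Of 15 genes of the distal convoluted and connecting tubule, 7 were listed. All 7 were above 1 CPM in every library, against 88.0% of all genes. They were the kinase genes WNK1 (128 ± 4.02 CPM), STK39 (66.3 ± 2.75 CPM), and WNK4 (11.7 ± 1.47 CPM), the ubiquitin ligase adaptor gene KLHL3 (7.803 ± 0.504 CPM), and the magnesium handling genes TRPM7 (46.4 ± 1.52 CPM), TRPM6 (6.79 ± 0.920 CPM), and CNNM2 (4.62 ± 0.776 CPM). The listed genes were thus regulators and magnesium channels, of which WNK1, STK39, and TRPM7 are also used by many other tissues. SLC12A3, which encodes the thiazide-sensitive cotransporter, and the calcium genes CALB1, TRPV5, SLC8A1, and S100G were not listed, nor were PVALB, KCNJ10, and KLK1.

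Collecting duct genes were listed in part for both cell types. Of 13 principal cell genes, 7 were listed and 5 were above 1 CPM in every library, against 88.0% of all genes. AQP3, the basolateral water channel gene, was at 7.95, 6.57, and 7.17 CPM, and AQP2, the apical one regulated by vasopressin, was not listed. The sodium channel subunit genes were at 8.84, 6.96, and 7.88 CPM for SCNN1A, 4.07, 3.26, and 4.16 CPM for SCNN1B, and 0.118, 0.221, and 0.287 CPM for SCNN1G. SCNN1G rested on 2, 4, and 6 reads, so its level is close to the value of a few reads. AVPR2, the vasopressin receptor gene, was at 0.898 ± 0.243 CPM, HSD11B2, which protects the mineralocorticoid receptor from cortisol, was at 1.57 ± 0.215 CPM, and the receptor gene itself, NR3C2, was not listed, nor were AQP4, KCNJ1, ELF5, and FXYD4. GATA3, also on this list, is given above.

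Of 12 intercalated cell genes, 4 were listed and 3 were above 1 CPM in every library, against 88.0% of all genes. ATP6V1B1, the proton pump subunit gene typical of these cells, was at 123, 112, and 107 CPM, ATP6V0D2 was at 22.04, 19.98, and 26.3 CPM, and CA2, which encodes cytosolic carbonic anhydrase, was at 213, 216, and 201 CPM. SLC4A9, a basolateral exchanger gene, was at 0.402 ± 0.163 CPM. SLC4A1, SLC26A4, FOXI1, RHCG, RHBG, ATP6V0A4, ATP6V1G3, and AQP6 were not listed. Among podocyte genes, PODXL, which encodes the apical sialomucin podocalyxin, was at 356, 346, and 327 CPM and SYNPO, an actin-binding protein gene, was at 19.2 ± 0.663 CPM, while NPHS1, WT1, PTPRO, and PLA2R1 were not listed.

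**Figure D3:**
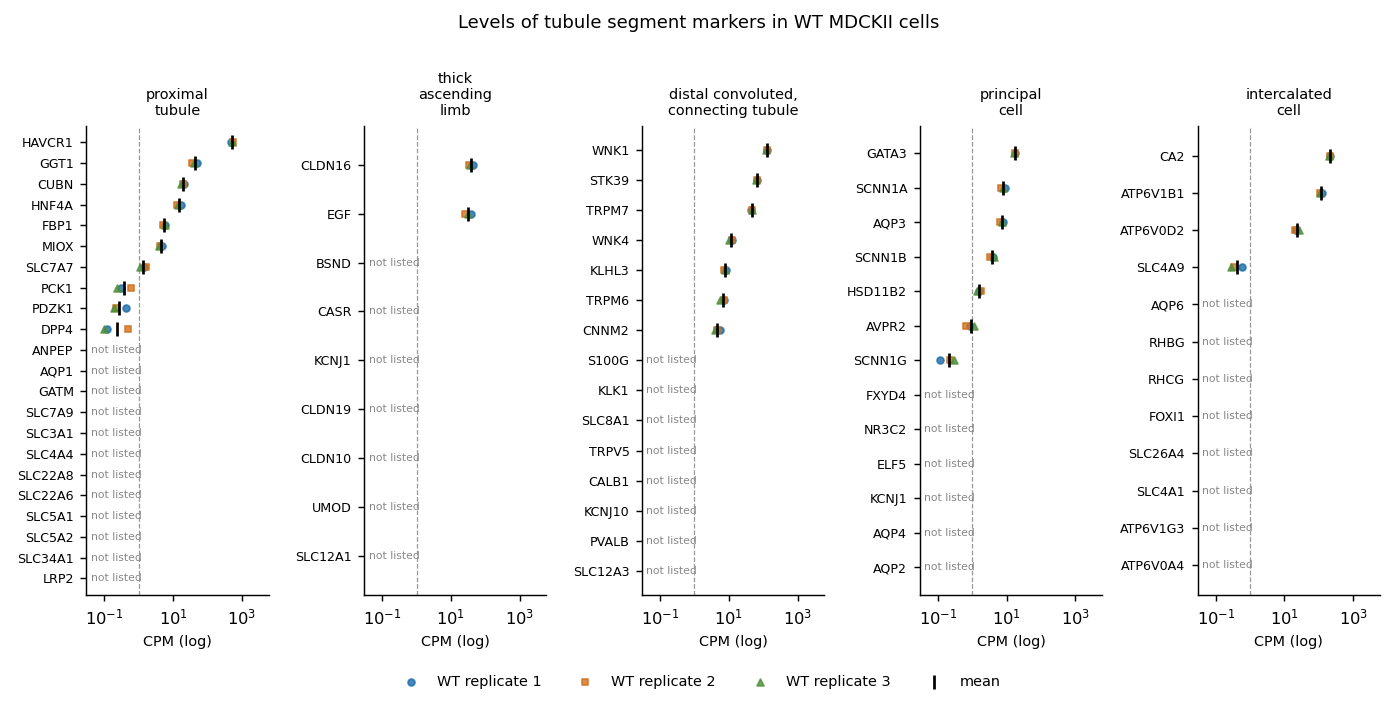
Levels of markers of 5 tubule segments or cell types in WT MDCKII cells, in CPM on log axes, with a point for each library, a bar for the mean, and a dashed line at 1 CPM. Genes without a row in the table are written as not listed, and they outnumber the listed ones in all but the principal cell list, where 7 of 13 are listed.

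Across the 19 lists, 187 of 292 distinct genes were listed under their symbols. Of the 105 others, 102 have that symbol in the dog RefSeq genes of a later assembly (UU_Cfam_GSD_1.0), so most of the missing names are known symbols in dog. What kept these genes from being listed was not tested, and their levels are not analysed here.

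Of 15 genes for the sodium pump and its regulators, 7 were listed. All 7 were above 1 CPM in every library, against 88.0% of all genes. The beta subunit genes ATP1B1 and ATP1B3 were at 191, 171, and 162 CPM and 158, 173, and 144 CPM. ATP1A4, ATP1B2, and ATP1B4 were not listed, nor were FXYD1, FXYD4, and FXYD7. Of the FXYD genes, which encode small regulators of the pump, FXYD5 was at 94.4 ± 3.95 CPM, FXYD6 at 10.8 ± 2.17 CPM, FXYD2, the kidney gamma subunit, at 7.25, 3.698, and 5.97 CPM, and FXYD3 at 4.71 ± 0.753 CPM. FXYD2 was highest in replicate 1 and lowest in replicate 2, and it varied between the libraries.

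Ion transport genes included cotransporters, exchangers, and channels. Of 34 genes on this list, 24 were listed, with a median mean level of 67.7 CPM. All 24 were above 1 CPM in every library, against 88.0% of all genes. SLC12A2, which encodes the basolateral cotransporter NKCC1, was at 187, 169.8, and 158 CPM, and the potassium chloride cotransporter genes SLC12A7 and SLC12A4 were at 152 ± 7.33 CPM and 77.8 ± 7.898 CPM. Among pH regulators, the anion exchanger gene SLC4A2 was at 204 ± 16.6 CPM, and the bicarbonate cotransporter gene SLC4A7 at 114 ± 2.67 CPM, while SLC9A3, an apical sodium proton exchanger gene, was not listed. The sulfate carrier gene SLC26A2 was at 22.7 ± 1.63 CPM, and SLC26A6 was not listed. CFTR and ANO1, both apical chloride channel genes, were not listed. The scramblase and channel gene ANO6 was at 191 ± 11.6 CPM, the exchanger gene CLCN3 at 107 ± 9.82 CPM, the channel gene CLCN2 at 11.01 ± 1.58 CPM, and the volume-regulated channel gene LRRC8A at 74.3 ± 0.796 CPM.

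Potassium and calcium transport genes covered a wide range of levels. By symbol, 21 potassium channel subunit genes were listed, with a median mean level of 3.32 CPM and a median CV of 17.2%. The calcium-activated potassium channel gene KCNN4 was at 98.9, 89.8, and 89.7 CPM, the tandem-pore channel genes KCNK1 and KCNK5 were at 61.1 ± 4.59 CPM and 36.03 ± 2.39 CPM, and KCNQ1 was at 31.5 ± 1.15 CPM. KCNJ16 was at 2.73 ± 0.747 CPM, and the cation channel gene TRPM4 was at 7.82 ± 0.678 CPM, while KCNJ15, KCNE3, and the calcium channel gene TRPV6 were not listed. Calcium pumps were led by ATP2A2 of the endoplasmic reticulum at 216 ± 15.8 CPM, followed in CPM by ATP2B1 and ATP2B4 of the plasma membrane at 88.1 ± 7.84 CPM and 51.9 ± 4.87 CPM. PKD1 and PKD2, the polycystin genes whose human counterparts are mutated in polycystic kidney disease, were at 31.5, 34.4, and 38.6 CPM and 28.6, 26.6, and 25.9 CPM. Their ratio in CPM was 1.10, 1.30, and 1.49, and its CV of 14.9% was above those of PKD1 (10.3%) and PKD2 (5.097%).

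The listed water channel genes lay below 10 CPM, and osmolyte genes ranged from below 1 to above 100 CPM. Of 15 genes on this list, 8 were listed and 6 were above 1 CPM in every library, against 88.0% of all genes. Besides AQP3, AQP5 was at 5.33 ± 0.414 CPM and AQP11 at 0.847 ± 0.292 CPM, and AQP1, AQP2, AQP4, AQP6, and AQP7 were not listed. SLC6A6, which encodes the taurine transporter, was at 227, 199.9, and 209 CPM, and SLC6A12, which encodes the betaine transporter, was at 18.03, 14.3, and 16.5 CPM. AKR1B1, which makes sorbitol, was at 44.3 ± 3.27 CPM, and NFAT5, the transcription factor of the response to high salt, was at 33.2 ± 1.39 CPM. SLC5A3, the myo-inositol transporter gene, was at 0.412, 0.552, and 0.0478 CPM, from 7, 10, and 1 reads. Over the 3 libraries its pooled reads gave 0.321 CPM, with a 95% interval of 0.190 to 0.508 CPM (exact Poisson, counting error only). The urea transporter genes SLC14A1 and SLC14A2 were not listed.

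Genes for carriers of glucose, lactate, and amino acids were mostly listed. SLC2A1, which encodes the glucose carrier GLUT1, was at 331, 329.7, and 331 CPM, and its CV of 0.230% was the lowest on its list. That CV is below the median counting error of 1.80% for genes at 100 to 1000 CPM, so it does not show steadier expression. SLC2A8, SLC2A4, and SLC2A12, further glucose carrier genes, were at 21.7 ± 1.51 CPM, 5.11 ± 0.376 CPM, and 2.04 ± 0.522 CPM, and SLC2A2 and SLC2A3 were not listed. The lactate transporter genes SLC16A1 and SLC16A3 were at 257 ± 10.4 CPM and 30.3 ± 4.17 CPM. Among amino acid carriers, the glutamine transporter genes SLC1A5, SLC38A1, and SLC38A2 were at 243 ± 14.8 CPM, 226 ± 12.3 CPM, and 160.2 ± 16.1 CPM. The large neutral amino acid exchanger gene SLC7A5 was at 139 ± 7.28 CPM and its heavy chain gene SLC3A2 at 46.9 ± 3.51 CPM, with a ratio of SLC3A2 to SLC7A5 in CPM of 0.349, 0.337, and 0.325. The cystine exchanger gene SLC7A11 was at 24.1 ± 4.51 CPM, and the peptide transporter gene SLC15A2 was at 0.368 ± 0.192 CPM. The amino acid carrier genes SLC7A6 and SLC1A4 were at 48.5 ± 1.85 CPM and 34.4 ± 5.29 CPM, and SLC7A8 and SLC16A7 were not listed. Of the 21 genes, 15 were listed and 14 were above 1 CPM in every library, against 88.0% of all genes.

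Drug transport genes lay below 100 CPM throughout, with a median mean level of 33.4 CPM. ABCB1, which encodes the efflux pump P-glycoprotein, was at 86.97, 82.4, and 78.6 CPM, and ABCG2, the gene of another drug efflux pump, was not listed. Among genes for multidrug resistance-associated proteins, ABCC4 was at 45.6 ± 2.25 CPM, ABCC5 at 44.6 ± 3.55 CPM, ABCC1 at 24.1 ± 2.86 CPM, ABCC3 at 23.1 ± 4.47 CPM, and the apical pump gene ABCC2 at 5.89, 3.37, and 3.92 CPM. ABCC2 was highest in replicate 1 and varied between the libraries. The organic anion carrier gene SLCO4A1 was at 83.4 ± 11.5 CPM, the folate carrier gene SLC19A1 at 56.5, 68.01, and 82.96 CPM, the carnitine carrier gene SLC22A5 at 33.4 ± 2.32 CPM, and the nucleoside carrier gene SLC29A1 at 17.1 ± 0.537 CPM. SLC22A2, SLC22A3, SLC47A1, and SLC47A2, cation transporter genes of kidney and liver, were not listed, nor was SLC29A2. SLCO4C1, a kidney organic anion carrier gene, was at 0.323 ± 0.0554 CPM. In all, 11 of the 20 genes were listed and 10 were above 1 CPM in every library, against 88.0% of all genes.

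**Figure D4:**
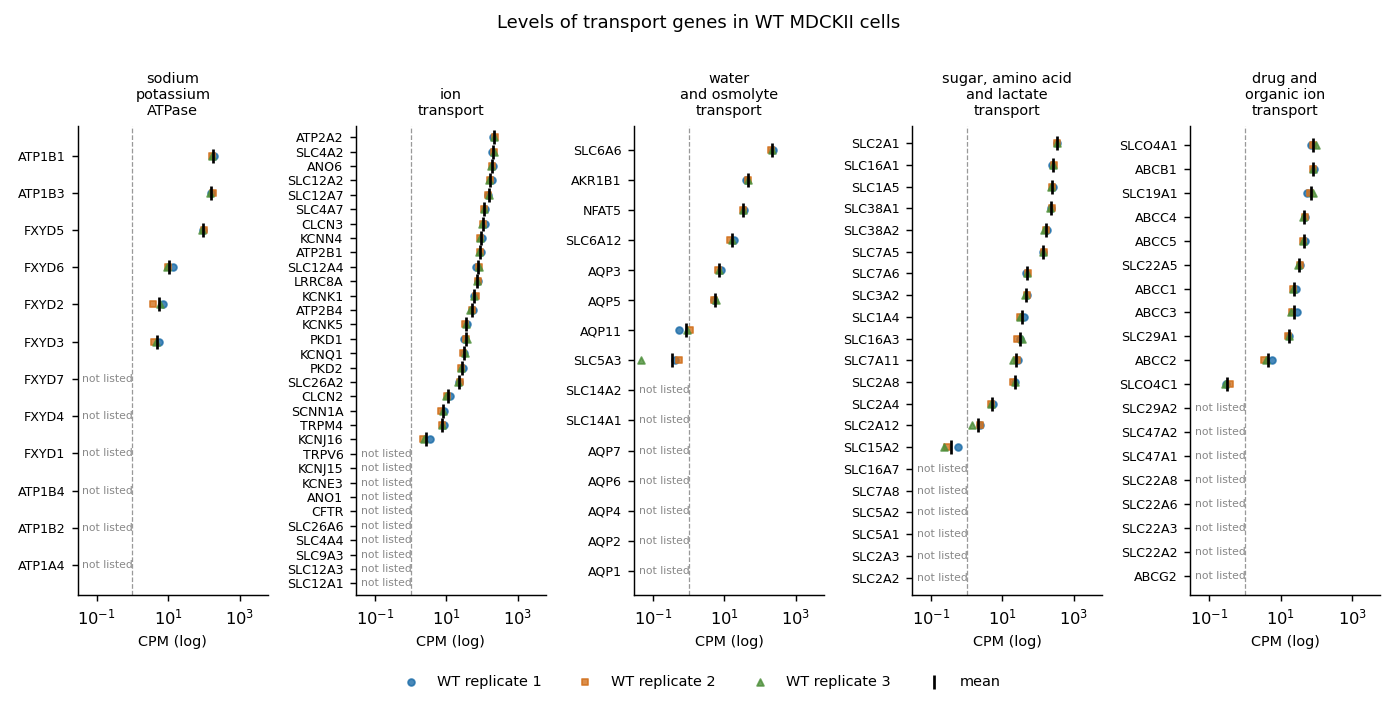
Levels of transport genes on 5 lists in WT MDCKII cells, in CPM on log axes, with a point for each library, a bar for the mean, and a dashed line at 1 CPM. SLC2A1 at 330.5 CPM leads the sugar and amino acid list, and no listed aquaporin gene reaches 10 CPM.

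Among all transport genes by symbol, examined after the levels had been seen, the highest solute carrier levels belonged to carriers of mitochondria, phosphate, and vitamins. The adenine nucleotide carrier genes SLC25A6 and SLC25A5 were at 726 ± 45.5 CPM and 418 ± 25.6 CPM, and the mitochondrial phosphate carrier gene SLC25A3 was at 372 ± 22.4 CPM. The plasma membrane phosphate carrier gene SLC20A1 was at 603 ± 38.8 CPM, and the multivitamin carrier gene SLC5A6 was at 385 ± 3.19 CPM, with a CV of 0.828%. TRPV4, a calcium channel gene activated by cell swelling and heat, was at 158 ± 7.23 CPM and was the highest of 13 TRP channel genes in CPM. CLIC1 was at 491 ± 29.5 CPM. Of the 215 solute carrier genes, 192 were above 1 CPM in every library and 32 were above 100 CPM, against 88.0% and 15.5% of all genes.

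Genes that are commonly used as references for normalization were all listed, and they differed in level and in spread. The 21 genes ranged from TBP at 45.9, 42.8, and 46.98 CPM to GAPDH at 2519, 2547, and 2552 CPM. All were above 1 CPM in every library, against 88.0% of all genes. The median CV was 5.29%, near the 4.72% of all genes between 100 and 1000 CPM and the 5.30% of those above. GAPDH had the smallest CV (0.704%), followed by PPIA (2.17%), RPS19 (2.48%), RPLP0 (2.53%), B2M (2.86%), and SDHA (3.05%). RPL32 had the largest, 12.1%, with 863, 852, and 1051 CPM, and replicate 3 lay above the other two. The CV of GAPDH is near the median counting error of genes above 1000 CPM (0.593%), so it does not show steadier expression. ACTB, the beta-actin gene, was at 608, 710.5, and 639 CPM, and TFRC, the transferrin receptor gene, at 573, 501, and 475 CPM. HPRT1 was at 115 ± 6.09 CPM, YWHAZ at 58.9 ± 4.98 CPM, GUSB at 121 ± 5.43 CPM, and TUBB at 951 ± 51.4 CPM. The glycolytic gene PGK1 was at 371 ± 24.1 CPM, HNRNPH1 at 536 ± 29.8 CPM, RPL13A at 1337 ± 84.5 CPM, and RPL8 at 1211 ± 96.3 CPM. Both actin genes were highest in replicate 2, and the ratio of ACTB to ACTG1 in CPM was 0.167, 0.169, and 0.175. Its CV of 2.47% was below those of ACTB (8.08%) and ACTG1 (8.45%).

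The 3 libraries differed little, and few genes moved between them by a wide margin. For the 9339 genes with a mean of at least 10 CPM, the median CV was 5.52%, and 95% of them had a CV below 13.97%. The median fold between libraries over these genes was 1.07 for replicates 1 and 2, 1.08 for replicates 1 and 3, and 1.06 for replicates 2 and 3. Between 100 and 1000 CPM the median CV was 4.72%, whereas counting alone would give 1.80%, so most of the spread of abundant genes was not counting error. Below 1 CPM the median CV was 30.003%, near the 30.2% computed for counting error from the mean reads. These are not like for like, since the median CV rests on 3 values a gene. Of the 1366 genes there, 53 varied. The common biological CV estimated by edgeR, which leaves out counting error, was 6.35%.

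Replicate 3 was highest and replicate 1 lowest for 106 of the 349 genes, and replicate 1 was highest and replicate 2 lowest for 101. The listed markers that varied included EGF, PDGFRA, FXYD2, and ABCC2. The reference, ion transport, and mitochondrial lists had 0 varying genes, and with 2.55% of all genes varying, few or none would be met in lists of this size.

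The genes with the largest CV at a mean of at least 10 CPM included ODAPH, LOC106558651, GADD45GIP1, WNT7B, METRNL, LOC100684767, CDC42EP5, PDCD4, and BMF, with CVs from 30.9% to 36.5%. WNT7B, which encodes a secreted Wnt ligand, was at 7.54, 13.4, and 15.2 CPM, lowest in replicate 1 and highest in replicate 3, as were ODAPH, GADD45GIP1, METRNL, and CDC42EP5. PDCD4, a translation inhibitor gene, and BMF, a gene of the BCL2 family that promotes cell death, were at 21.4, 11.98, and 14.2 CPM and 42.2, 22.7, and 30.4 CPM, and both were highest in replicate 1 and lowest in replicate 2. PSAT1, a serine synthesis gene named after its value was seen, was the varying gene with the highest mean, at 341, 274, and 219.7 CPM. At the other end, the 10 genes with the smallest CV lay between 0.114% and 0.214%, among them ANAPC4, a subunit gene of the anaphase-promoting complex, at 222, 222, and 222 CPM, and PUM2, an RNA-binding protein gene, at 204, 203, and 203 CPM. These CVs lie below the median counting error of genes at 10 to 100 CPM (3.82%) or 100 to 1000 CPM (1.80%). Values this small can arise by chance among 9339 genes, so they do not show steadier expression.

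**Figure D5:**
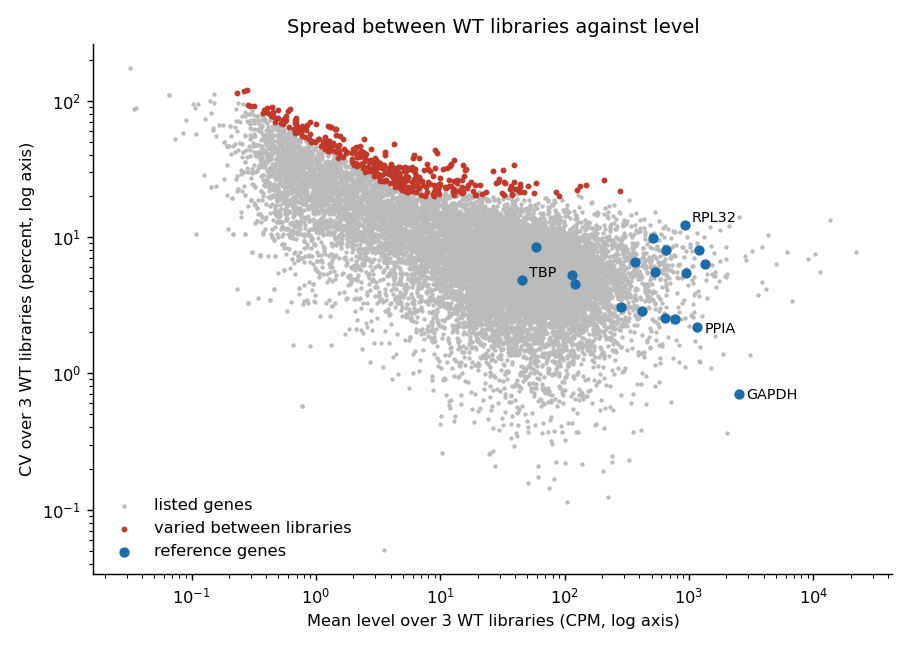
CV over the 3 WT libraries, in percent, against the mean level in CPM, both on log axes, for the listed genes, with reference genes in blue and genes that varied between libraries in red. The CV falls from a median of 30.003% below 1 CPM to 4.72% between 100 and 1000 CPM, and GAPDH is the lowest of the reference genes at 0.704%.

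The genes of the study's interest can be placed in this baseline. CGN ranked 798 of the 13672 listed genes and had a CV of 8.05%, and its order among the libraries, highest in replicate 1 and lowest in replicate 3, was also that of CGNL1. CGNL1 ranked 9384 and, with a fold of 1.58 between its highest and lowest library, was among the 349 genes that varied.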

How the data were processed

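RNASeq of WT MDCKII cells was used from a table of 12 libraries, of which the 3 WT libraries enter every value and the columns of the other 9 were used in none. The authors aligned reads with STAR 2.7.0f to CanFam3.1 and counted them with HTSeq 0.9.1, as the submitters' processing notes and the methods state. The strand setting and annotation release are not given in the sources used here. The authors deposited CPM after filtering and scaling by library size, treated here as a signal since the columns do not sum to 1000000. Reads were recovered by dividing by the value of 1 read, and all were whole within 0.001. The recovered totals, 16837532 to 20987950 reads, cover listed genes only.

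Mean, SD, and CV were computed with Python 3.11.15, pandas 2.3.3, and scipy 1.17.1, and the biological CV with edgeR 4.0.16 in R 4.3.3. Reads were compared between libraries by the chi-square test with Benjamini-Hochberg adjustment over all 13672 genes. Reads of 13672 genes were simulated with counting error only, and the changed genes all had a mean of at least 10 CPM. On these reads, 100 of 100 genes with a 2-fold change and 4 of 13472 unchanged genes were called. The WT libraries spread more than counting error, so these rates do not carry over to them, nor to genes below 10 CPM. No 2 WT libraries were duplicates: the median chi-square per gene between libraries was 1.20 to 1.66, against 0.455 from counting alone. Intervals are exact Poisson at 95% and cover counting error only.

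The genes named are the 30 with the highest mean CPM, the members of 19 lists, 15 pairs, the 10 with the largest and the 10 with the smallest CV at a mean of at least 10 CPM, and CGN and CGNL1. Any other gene was picked once its level was known. Some of these genes count in the totals but are not reported here by name. The members and lists were chosen with earlier results of these data known. The pairs were to be compared per coding length, which was not at hand, so only ratios within a library are given. Of the names, 16 have the form of a date and were left as they are. Alternatives were another scaling, other level and fold limits, and leaving out each replicate.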

Additional observations from a re-analysis of the deposited data

How the results depend on the processing

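The median level over genes was 27.3 CPM, 27.4 CPM when scaled to the library totals, and 27.2 to 27.4 CPM when any 1 replicate was left out. The count of varying genes depended most on the rule: the 349 genes became 138 with a fold of at least 2 and 4015 with no fold limit, and leaving out a replicate gave 83 (without replicate 1) to 243, with 171 without replicate 3. The fewer libraries make the highest and lowest closer by construction. With a limit of 5 CPM, 3 principal cell genes, 3 mesenchymal genes, and 0 endothelial genes passed in every library. Genes above the limit numbered 12762 at 0.5 CPM and 10235 at 5 CPM. Of the single-gene levels, 214 moved by less than 1 SD and 11 by more under the scaling to totals. Leaving out 1 of 3 libraries cannot move a mean by 1 SD, so it tests nothing about single-gene levels. Ranking genes and comparing pairs per coding length were not run, because no coding length was at hand. No paired analysis was possible because only 1 group, WT, enters the values. Depth limits genes below 1 CPM, where the spread was near that computed for counting error.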

Other observations

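Receptors, nuclear receptors, and secreted factors were looked up after the levels in WT MDCKII cells had been seen, and they are given as values only. Of 24 receptor genes, 16 were listed, 15 were above 1 CPM in every library, and 0 varied, both close to the shares over all genes (88.0% above 1 CPM and 2.55% varying). MET, the receptor gene for hepatocyte growth factor, was at 616, 673, and 598 CPM, and HGF, the ligand gene, was not listed. Among the ERBB receptor genes, ERBB3 was at 248 ± 42.7 CPM, ERBB2 at 122 ± 6.73 CPM, and EGFR at 27.6 ± 3.68 CPM. The growth factor receptor genes TGFBR2, IGF1R, and FGFR1 were at 193 ± 7.28 CPM, 168 ± 12.2 CPM, and 71.4 ± 2.39 CPM, and INSR was not listed. P2RY2, a nucleotide receptor gene, was at 124 ± 3.36 CPM, and PTGER2, a prostaglandin receptor gene, was at 60.1 ± 2.09 CPM. Of 5 nuclear receptor genes, 3 were listed, among them the glucocorticoid receptor gene NR3C1 at 29.4 ± 2.28 CPM and the vitamin D receptor gene VDR at 3.76 ± 0.378 CPM.

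Of 17 secreted factor genes, 13 were listed, and all 13 were above 1 CPM in every library, against 88.0% of all genes. Besides SPP1, CLU, and STC1, the list held WFDC2 at 719 ± 52.4 CPM, the endothelin gene EDN1 at 273 ± 26.4 CPM, the cytokine gene LIF at 127 ± 5.39 CPM, and VEGFA at 44.2 ± 2.45 CPM. LCN2, which encodes the injury marker NGAL, was at 5.83, 3.15, and 4.11 CPM and was the 1 gene of these lists that varied. Of 20 listed collagen genes, 2 were above 100 CPM in every library, and the median mean level was 5.01 CPM. COL5A2, a fibrillar collagen gene, was at 1491, 1628, and 1637 CPM, COL17A1, a hemidesmosome collagen gene, was at 1114, 1086, and 1058 CPM, and COL4A1 and COL4A2, the main basement membrane collagen genes, were at 82.3 ± 6.58 CPM and 85.6 ± 9.896 CPM. Among claudin genes outside the lists, CLDN4 was at 331 ± 22.2 CPM, CLDN1 at 278 ± 12.9 CPM, and CLDN3 at 37.1, 46.4, and 56.96 CPM, lowest in replicate 1 and highest in replicate 3. With a fold of 1.53, CLDN3 was among the 3 of 11 listed claudin genes that varied, against 2.55% of all genes. The other varying claudin genes had means from 1 to 10 CPM, where 225 of 2967 genes varied.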
